A study of Mus musculus with 8 samples.

Results

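The genes described here act in G2 and mitosis, the part of the cell cycle in which a cell that has copied its DNA builds a spindle, separates its chromosomes and divides. The list of 31 names follows gene function, and was drawn up with earlier results of these data known. Of these, 30 had a probe set with a single listed gene, all under the listed symbol, among 18193 genes measured in all; Ccnb1 was not analysed here. The 30 genes had 64 probe sets, and each gene is given by its brightest probe set on average across the 8 arrays. Sorted Sca1+Lin- cells of mouse bone marrow, which carry the surface marker Sca1 and lack markers of mature lineages, were compared between 3 wild-type samples (WT) and 5 samples of transgenic mice labelled Sca1-MALT1. MALT1 is a protease that links antigen receptors to NF-kB. The labels do not give which MALT1 sequence the transgene carried, the strain, age or sex of the mice, or whether animals were pooled. The RNA was linearly amplified before it was hybridised to 1-colour Affymetrix arrays. Values are log2 signals as deposited, so a difference of 1 is a doubling of signal. They cannot be compared in level between genes, because each probe set binds with its own strength.

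The sorted fraction was checked against its markers, each compared only with itself across arrays. Of the progenitor markers, Kit, the receptor of stem cell factor, read 9.24 to 11.06 in WT and 8.43 to 10.65 in Sca1-MALT1 arrays. Cd34, Flt3 and Hlf differed by -2.15, -1.59 and -1.33. Among the 10 measured, 8 differences were negative and 2 positive, Slamf1 at 0.78 and Gata2 at 0.29. Of the 6 measured lineage markers, Ms4a1, which encodes the B cell antigen CD20, read 12.55 ± 0.37 in WT (SD, n = 3) and 11.50 ± 0.999 in Sca1-MALT1 (n = 5). The T cell genes Cd3e, Cd5, Cd4 and Cd8a differed by 0.77, 0.55, -0.22 and 0.03. Itgam, of myeloid cells, read 8.60 in WT replicate 3 and 8.71 in Sca1-MALT1 replicate 4, and at most 5.55 in the other arrays. By limma's adjusted p none of these genes was called. Kit, Cd34, Slamf1, Gata2, Cd5, Cd4, Cd8a and Itgam were named outside the rule for named genes, after their values were seen. The gene of Sca1 itself, Ly6a, was not analysed here.

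Entry into mitosis is driven by CDK1 bound to cyclin A2 and the B-type cyclins, and by the kinases PLK1 and Aurora A. The spindle checkpoint kinases then hold the cell until every kinetochore is attached, after which the anaphase-promoting complex with its activator CDC20 marks cyclin B and securin for destruction. Genes of this group are transcribed late in the cycle through the MuvB complex with B-MYB and FOXM1, and are silenced in resting cells by the related DREAM complex. In bone marrow most stem cells rest, while committed erythroid, granulocyte and B lymphoid precursors divide often.

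The members share promoter letters that played no part in their choice. Promoters of this class are known for the CHR element, which MuvB complexes bind, and for CCAAT boxes, which NF-Y binds. RefSeq start sites of build GRCm38.p6 matched 25 of the 30 genes, with 27 windows that run from 250 bases before to 50 bases after a start. The CHR letters TTTGAA, read on either strand, were in 22 of the 27 windows (81.5%), against 17.9% of all 32851 windows in the table. The rarer CHR form TTCGAA was in 3 of 27 (11.1%, against 1.56%). CCAAT, on either strand, was in 21 of 27 (77.8%, against 37.4%). TTTGAA and CCAAT occurred together in 19 of 27 (70.4%, against 6.95%). A base could count toward more than one motif. The 100 bases before the start are shown for 5 members in which both motifs lie in that stretch. Capitals mark the letters of the first CHR form and of the CCAAT box, on either strand. Cdk1 lies on the minus strand at chr10:69352913-69353012, Top2a on the minus strand at chr11:99024190-99024289 and Cdc20 on the minus strand at chr4:118437344-118437443. Kif11 lies on the plus strand at chr19:37376282-37376381 and Ube2c on the plus strand at chr2:164769829-164769928. A match is a description of these letters and not a measured binding site.
Cdk1: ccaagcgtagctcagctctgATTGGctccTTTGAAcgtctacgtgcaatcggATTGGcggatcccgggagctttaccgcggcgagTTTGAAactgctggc
Top2a: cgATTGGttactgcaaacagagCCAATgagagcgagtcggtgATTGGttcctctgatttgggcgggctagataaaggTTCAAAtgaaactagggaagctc
Kif11: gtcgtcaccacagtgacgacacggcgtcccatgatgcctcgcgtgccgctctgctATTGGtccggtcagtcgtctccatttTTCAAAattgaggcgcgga
Cdc20: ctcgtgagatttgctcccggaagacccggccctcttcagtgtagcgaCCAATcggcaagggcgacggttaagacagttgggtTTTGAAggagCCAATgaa
Ube2c: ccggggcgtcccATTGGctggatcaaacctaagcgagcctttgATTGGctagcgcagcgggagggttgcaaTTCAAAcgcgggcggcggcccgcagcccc

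No G2 or mitosis gene passed the test between the genotypes, and the mean signal over the 30 genes differed by less than the spread between arrays, at 9.58 ± 0.23 in WT (SD over arrays, n = 3) and 9.63 ± 0.65 in Sca1-MALT1 (n = 5). The arrays of Sca1-MALT1 differed far more from one another than the genotypes did. In Sca1-MALT1 replicate 4 all 30 genes read above every WT array, while in replicate 2 the count below every WT array was 27. RNA of a mixed fraction was measured, so fewer dividing cells and less RNA per cell cannot be told apart. Whether each array stands for a separate animal is not in the labels, and the p-values reflect only how these arrays vary, which may be technical variation.

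The genotypes were compared with limma over all 18193 genes, with Benjamini-Hochberg adjustment and a threshold of 0.05. None of the 30 genes passed, where 0.0879% of all genes did; their adjusted p-values ran from 0.677 to 0.999. None had an unadjusted p under 0.05 in limma's test, against 10.2% of all genes. In none did the groups fail to overlap, against 7.13% of all genes. The log2 differences, Sca1-MALT1 minus WT, ran from -0.47 to 0.64 with a median of 0.06, against a median of 0.004 over all genes. There were 20 positive and 10 negative differences, and 25 lay within 0.25 of 0. This split did not hold when single arrays were left out: 21 genes were lower without WT replicate 2, 23 without Sca1-MALT1 replicate 3 and 21 without replicate 4. The data do not show equal expression. The 95% interval lay within 1 log2 unit of 0 for 12 genes and reached beyond it for 18, the widest reach being -1.57 for Kif2c and 1.66 for Kif11.

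**Figure D1:**
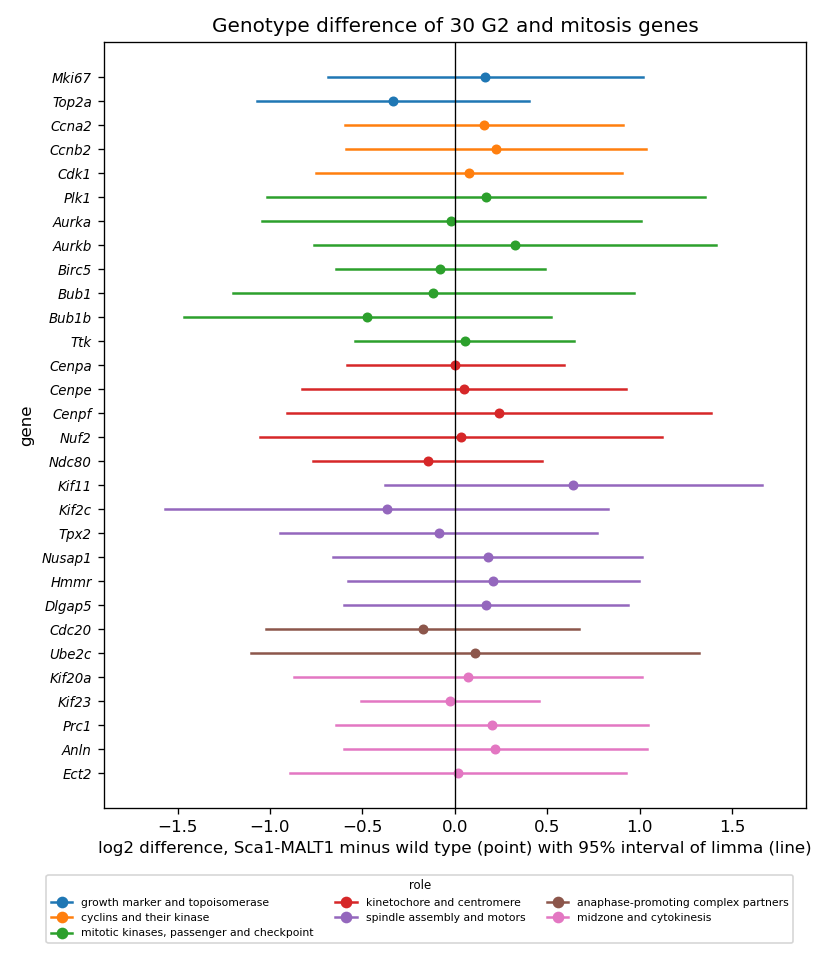
Log2 difference between Sca1-MALT1 (n = 5) and WT (n = 3) for each of the 30 genes, with the 95% interval of the limma fit as a line and the role of the gene as colour. Every interval spans 0, and the points run from -0.47 (Bub1b) to 0.64 (Kif11).

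Mki67 and Top2a are the usual marks of dividing cells. Mki67, which encodes the Ki-67 antigen that coats mitotic chromosomes, read 12.69, 12.14 and 12.92 in WT replicates 1 to 3 and 12.35, 12.03, 13.61, 13.26 and 12.49 in Sca1-MALT1 replicates 1 to 5. Sca1-MALT1 replicates 3 and 4 lay above WT and replicate 2 below, so the groups overlapped (difference 0.16, SE 0.37, limma adjusted p = 0.916). Top2a, the topoisomerase that untangles sister chromatids, read 12.05, 11.24 and 11.86 in WT and 10.96, 10.90, 11.70, 12.16 and 11.20 in Sca1-MALT1. Here 3 of the 5 Sca1-MALT1 arrays were below all WT arrays and only replicate 4 was above (difference -0.33, SE 0.32, limma adjusted p = 0.777), and all 3 probe sets of Top2a had a negative difference.

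The cyclins and CDK1 all had small positive differences. Ccna2, the cyclin of S phase and mitotic entry, read 10.67, 10.14 and 10.53 in WT and 10.25, 9.997, 11.31, 11.18 and 10.27 in Sca1-MALT1. Ccnb2, a B-type cyclin, read 10.70, 10.12 and 10.53 in WT and 10.03, 10.16, 11.25, 11.46 and 10.46 in Sca1-MALT1. Replicates 3 and 4 were above WT in both genes, and the rest lay within or below the WT range. Cdk1, the kinase they activate, was also highest in replicates 3 and 4 and lowest in replicate 2, with 10.03, 9.50 and 9.71 in WT and 9.45, 8.95, 10.39, 10.58 and 9.74 in Sca1-MALT1. Their differences were 0.16 (SE 0.33), 0.22 (SE 0.35) and 0.08 (SE 0.36), all with limma adjusted p between 0.871 and 0.966. The 2 probe sets of Ccna2 differed in sign, at 0.16 and -0.04.

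Among the 7 genes of the mitotic kinases, the chromosomal passenger complex and the spindle checkpoint, 3 differences were positive and 4 negative. Bub1b encodes BUBR1, a checkpoint protein that restrains CDC20. It read 10.41, 9.65 and 10.46 in WT and 9.32, 9.34, 9.41, 11.09 and 9.35 in Sca1-MALT1, so 4 arrays lay close together below all WT arrays, and replicate 4 was above them all. Its difference was -0.47 (SE 0.43, limma adjusted p = 0.767, exact permutation p = 0.393). Without replicate 4 it was -0.82 and the groups no longer overlapped, still with a limma adjusted p of 0.194. The array left out there was the extreme array of this gene, so the overlap rested on it alone. The other two probe sets of Bub1b both differed by -0.11. Aurkb, the kinase of the passenger complex, read 8.96, 8.65 and 8.89 in WT and 8.58, 8.03, 9.27, 10.46 and 9.43 in Sca1-MALT1. Replicates 3, 4 and 5 of Sca1-MALT1 lay above WT (difference 0.32, SE 0.47, limma adjusted p = 0.861). Plk1, the Polo-like kinase of mitotic entry, read 8.26, 7.86 and 8.74 in WT and 8.40, 7.65, 8.65, 9.97 and 7.61 in Sca1-MALT1, where replicate 4 alone was above WT (difference 0.17, SE 0.52, limma adjusted p = 0.941). Aurka, Birc5 (the passenger protein survivin), Bub1 and Ttk (the checkpoint kinase MPS1) differed by -0.02, -0.08, -0.12 and 0.05, and each read highest in replicate 3 or 4.

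Kinetochore and centromere genes gave differences of -0.15 to 0.24. Cenpf, a kinetochore protein that accumulates in G2, read 10.10, 9.21 and 10.55 in WT and 9.82, 9.20, 11.31, 10.80 and 9.82 in Sca1-MALT1 (difference 0.24, SE 0.50, limma adjusted p = 0.909). It was highest in replicate 3, and its WT arrays were themselves widely spread. Cenpe, a kinesin that carries chromosomes to the spindle equator, read 9.19, 8.33 and 8.72 in WT and 8.09, 8.39, 9.30, 9.70 and 8.51 in Sca1-MALT1. Its brightest probe set differed by 0.05 and the dimmer one by -0.76. Ndc80, a subunit of the complex that grips microtubules, read 7.84, 8.03 and 7.80 in WT and 7.14, 7.61, 7.96, 8.47 and 7.53 in Sca1-MALT1 (difference -0.15, SE 0.27, limma adjusted p = 0.893). Replicates 1, 2 and 5 were below WT and replicate 4 above. Nuf2, its partner in that complex, and Cenpa, the histone that marks centromeres, differed by 0.03 and 0.003 and were highest in replicate 4.

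Spindle genes held the largest positive difference of the 30. Kif11, the kinesin that pushes spindle poles apart, read 8.60, 8.07 and 8.27 in WT and 8.95, 8.01, 10.01, 9.56 and 8.25 in Sca1-MALT1. Replicates 1, 3 and 4 were above WT and replicates 2 and 5 were not (difference 0.64, SE 0.44, limma adjusted p = 0.677, exact permutation p = 0.286). Its 3 probe sets disagreed, with the next brightest at 0.001, the dimmest at -0.24 and the mean of all 3 at 0.13. Kif2c, a kinesin that takes microtubules apart at kinetochores, read 9.66, 9.29 and 10.03 in WT and 8.82, 8.86, 9.32, 10.98 and 8.47 in Sca1-MALT1 (difference -0.37, SE 0.52, limma adjusted p = 0.854). Replicate 4 stood above WT, replicate 3 inside the WT range, and the remaining arrays below it. Its other probe sets differed by 0.22, -0.18 and 0.05, and the mean of all 4 by -0.07. Hmmr, a spindle assembly factor, read 8.88, 8.39 and 8.63 in WT and 8.53, 8.05, 9.46, 9.53 and 8.63 in Sca1-MALT1, and all 5 of its probe sets had a positive difference, from 0.04 to 0.66. Tpx2, which activates Aurora A at the spindle, Nusap1 and Dlgap5, which bundle spindle microtubules, differed by -0.09, 0.18 and 0.17.

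Cdc20 and Ube2c serve the anaphase-promoting complex as activator and as ubiquitin-conjugating enzyme. Cdc20 read 12.38, 11.74 and 12.02 in WT and 11.56, 11.53, 11.75, 13.07 and 11.46 in Sca1-MALT1 (difference -0.17, SE 0.37, limma adjusted p = 0.910). Replicate 4 was above WT, replicate 3 at its lower end and the other three below it. Its other probe sets differed by 0.18 and -0.13, and the mean of all 3 by -0.04. Ube2c read 10.67, 10.43 and 10.51 in WT and 10.35, 9.14, 11.56, 11.67 and 10.49 in Sca1-MALT1 (difference 0.11, SE 0.53, limma adjusted p = 0.969). Its Sca1-MALT1 arrays spanned 2.53 log2 units, the widest range of the 30 genes, against a median range of 1.63.

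Genes of the spindle midzone and cytokinesis differed by -0.02 to 0.22. Prc1, which crosslinks midzone microtubules, read 10.04, 9.75 and 10.02 in WT and 9.997, 9.27, 10.94, 10.75 and 9.71 in Sca1-MALT1. Anln, the anillin of the contractile ring, read 9.29, 8.98 and 9.41 in WT and 9.16, 8.47, 10.01, 10.11 and 9.46 in Sca1-MALT1. In both, replicates 3 and 4 were the highest arrays and replicate 2 the lowest. Kif20a, a kinesin that brings the passenger complex to the midzone, read 7.77, 7.73 and 8.20 in WT and 7.23, 7.59, 8.28, 9.18 and 7.58 in Sca1-MALT1, with replicate 4 standing 0.90 above replicate 3. Kif23, a midzone kinesin, had the narrowest range over the Sca1-MALT1 arrays, 0.88, and Ect2, the exchange factor that starts furrow ingression, differed by 0.02. The limma adjusted p-values of these 5 genes were 0.876 to 0.994.

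The spread between the Sca1-MALT1 arrays was shared by the whole group. The median SD of the 30 genes was 0.68 among the 5 Sca1-MALT1 arrays and 0.27 among the 3 WT arrays, against 0.24 and 0.20 over all genes. In all 30 genes the SD was larger in Sca1-MALT1 than in WT, which held for 59.8% of all genes. The genes of an array share its library, so these counts are not 30 separate observations. With each gene centred on its own mean, differences between arrays that all 30 genes had in common made up 74.7% of the sum of squares, against 1.04% over all genes. This share is larger by construction in shorter lists. Among the 5 Sca1-MALT1 arrays alone it was 79.0%, against 1.76% over all genes. High values were not particular to these genes. The share among these arrays was 81.6% for 9 T cell genes, 75.6% for 13 granulocyte precursor genes and 44.5% for 50 S phase genes. The median SD in these 3 lists was 0.81, 1.28 and 0.41. With Sca1-MALT1 replicate 4 left out, the median SD of the 30 genes among the remaining Sca1-MALT1 arrays was 0.55.

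**Figure D2:**
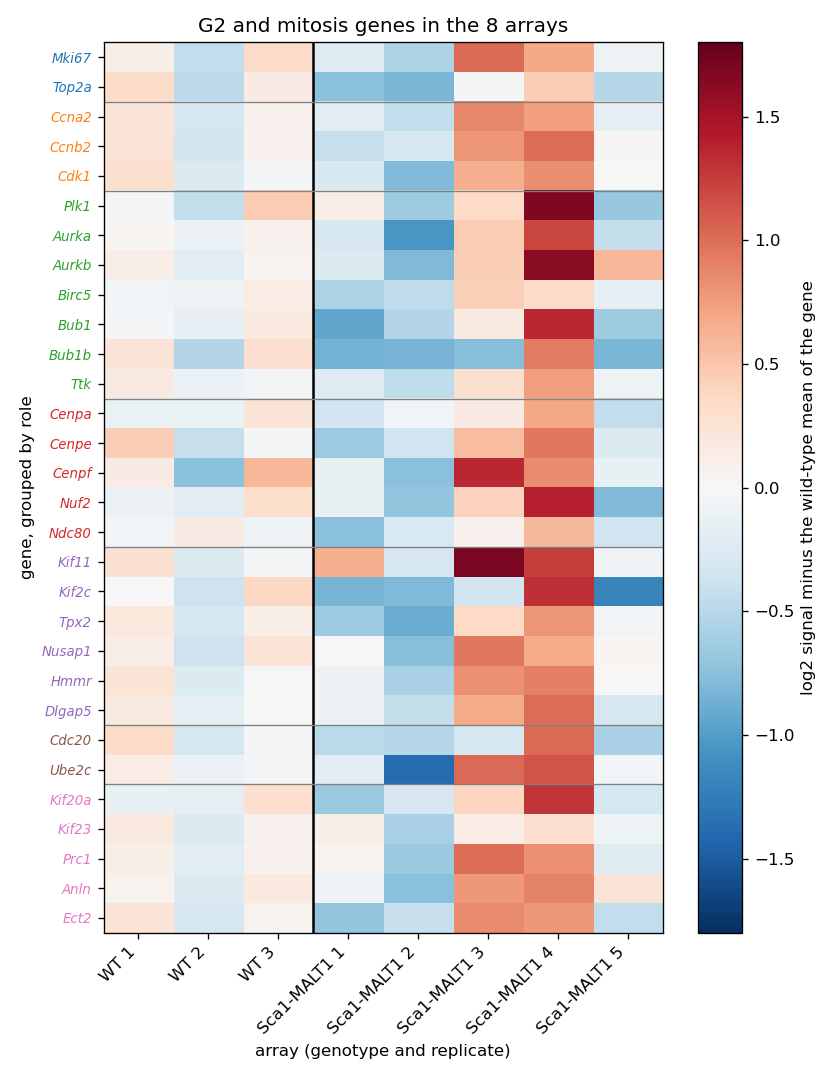
Log2 signal of the 30 genes (rows, grouped by role, as the colours of the gene names show) in the 3 WT and 5 Sca1-MALT1 arrays (columns), each minus the mean of the gene over the WT arrays. Replicate 4 is red in every row, with a median of 0.90, and replicate 2 is blue in nearly every row, with a median of -0.58.

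Replicate 4 was the highest of the 8 arrays in 22 genes and replicate 3 in the other 8, while no WT array was the highest or the lowest in any. The lowest array was replicate 2 in 17 genes, replicate 1 in 8 and replicate 5 in 5. Relative to the WT mean, the median over the 30 genes was 0.90 in replicate 4 (1.86-fold) and 0.45 in replicate 3 (1.36-fold). It was -0.58 in replicate 2, -0.27 in replicate 1 and -0.20 in replicate 5. Of the 30 genes, 21 read above every WT array in replicate 3, 1 in replicate 1, 2 in replicate 5 and 0 in replicate 2. The count below every WT array was 18 in replicate 1, 27 in replicate 2, 1 in replicate 3, 0 in replicate 4 and 15 in replicate 5. Over all genes, 20.3% to 37.7% lay above the WT range in a given Sca1-MALT1 array and 21.6% to 30.7% below it.

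Replicates 3 and 4, which both read high, differed from each other in which genes stood highest. In 22 genes replicate 4 was higher and in 8 replicate 3 was. The difference passed 1 log2 unit in 6 genes, all toward replicate 4: Bub1b (1.68), Kif2c (1.66), Plk1 (1.32), Cdc20 (1.32), Bub1 (1.19) and Aurkb (1.19). The 8 genes on the other side were Cenpf (-0.51), Kif11 (-0.45), Mki67 (-0.34), Nusap1 (-0.28), Prc1 (-0.19), Ccna2 (-0.12), Birc5 (-0.08) and Ect2 (-0.07). Relative to the WT mean, replicate 3 read -0.77 for Bub1b and -0.34 for Kif2c, but 1.69 for Kif11 and 1.36 for Cenpf. Other probe sets bore this out for some genes and not for others. The next brightest probe set read 9.02 in replicate 3 and 10.34 in replicate 4 for Bub1b, 10.16 and 11.76 for Cdc20, 8.95 and 10.56 for Aurkb, and 7.005 and 7.992 for Kif2c. For Bub1 it was dim and nearly level, at 4.52 and 4.48, and Plk1 had none. On the other side Cenpf was higher in replicate 3 in all 3 of its probe sets. The next brightest probe set of Kif11 was level, at 8.89 and 8.87, and its dimmest turned the sign, at 6.72 and 6.82. Second probe sets also turned the sign for Ccna2 (10.93 and 11.02), Prc1 (9.980 and 9.995) and Nusap1 (5.14 and 5.59). These are single arrays, named after their values were seen, and the differences between them have no replicate check.

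**Figure D3:**
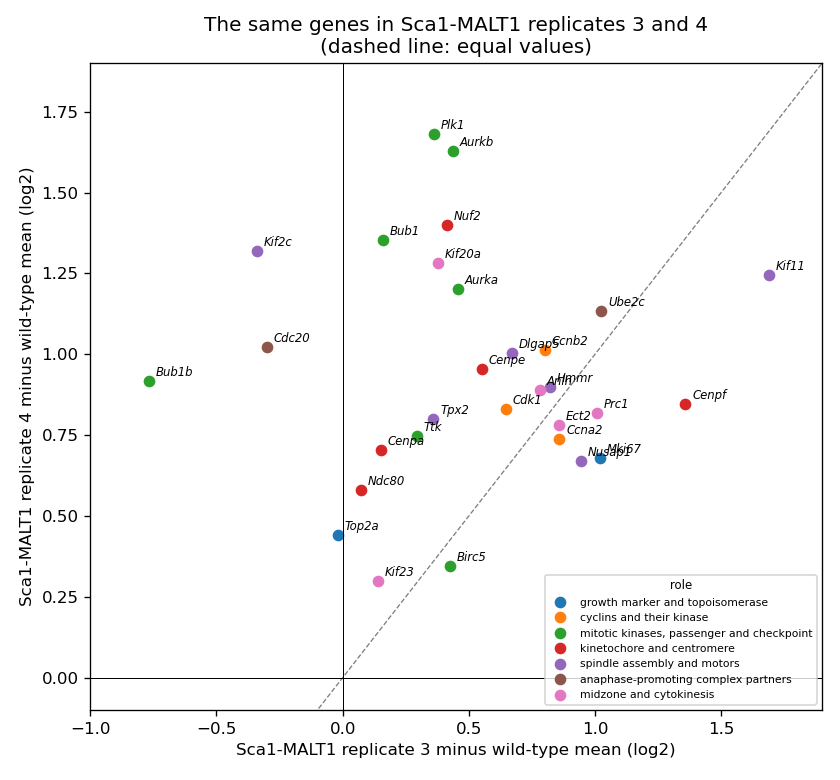
Signal of each of the 30 genes in Sca1-MALT1 replicate 3 (horizontal axis) and replicate 4 (vertical axis), both in log2 units minus the WT mean, with the role as colour and a dashed line at equal values. Every gene lies above 0 on the vertical axis, and Bub1b, Kif2c, Cdc20 and Top2a lie left of 0 on the horizontal one.

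Another 75 measured genes of G2 and mitosis, listed apart from the 30, had their highest mean in Sca1-MALT1 replicate 4 and their lowest in replicate 2, as the 30 had. None of the 75 passed in limma's test; 43 differences were positive and 32 negative, with a median of 0.06. Of these genes 62 read above every WT array in replicate 4 and 32 in replicate 3, and 45 below every WT array in replicate 2. Arrays accounted for 44.8% of their sum of squares. Foxm1, the forkhead factor of this programme, read 7.64 to 7.92 in WT and 7.66 to 8.13 in Sca1-MALT1. Mybl2, which encodes B-MYB, read 7.02 to 7.60 in WT and was above that range only in replicate 4, at 8.74. The lowest unadjusted p-values belonged to Wee1, the kinase that holds CDK1 inactive, at -0.45 (SE 0.17, limma adjusted p = 0.435), Psrc1 at -0.46 and Cks1b at -0.36.

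S phase genes, which copy the DNA before mitosis, followed the mitotic genes in some arrays and not in others. Of 50 measured, 44 (88%) had a negative difference, against 49.3% of all genes. Their median difference was -0.27, and none passed in limma's test. Their mean signal was highest in WT replicate 1, at 10.55. It was 9.95 and 9.86 in the other WT arrays, near the Sca1-MALT1 group mean of 9.86. In Sca1-MALT1 replicates 1 to 5 it was 9.44, 10.05, 9.72, 10.24 and 9.82, where the means of the 30 mitotic genes were 9.25, 8.97, 10.09, 10.52 and 9.31. In replicate 3, where 21 of 30 mitotic genes were above the WT range, 25 of the 50 S phase genes were below it and 5 above. In replicate 2, where 27 of 30 mitotic genes were below the WT range, 12 of 50 S phase genes were. Replicate 4 had the highest Sca1-MALT1 mean in both lists, though 11 of 50 S phase genes were above the WT range there. Below the WT range in replicate 1 were 38 of 50 S phase and 18 of 30 mitotic genes. In replicate 5 these counts were 22 of 50 and 15 of 30. The S phase shares below the WT range in replicates 1 to 5 were 76%, 24%, 50%, 16% and 44%. Over all genes they were 26.4%, 27.6%, 30.7%, 28.4% and 21.6%. Above the WT range in replicate 4 lay 22% of S phase genes and 28.2% of all genes. In replicate 3 these were 10% and 24.9%. The genes with the lowest p were Rpa3 at -0.43 (limma adjusted p = 0.360), Ccne1 at 0.53 and Rfc3 at -0.65.

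Other cell cycle lists gave no call in limma's test. A list of 16 genes of the anaphase-promoting complex, the ligase that Cdc20 and Ube2c serve, had 12 negative differences with a median of -0.07 (Anapc13 at -0.29, Anapc15 at -0.55 and Cdc16 at -0.24), and arrays accounted for 6.67% of their sum of squares. It holds, beside subunits, the activator gene Fzr1 (0.08) and the conjugating enzyme gene Ube2s (0.41), both positive. Cohesin genes had 5 of 10 negative, with Rad21 at 0.54, Stag2 at 0.38 and Nipbl at -0.55. Of 7 CDK inhibitor genes, 4 were negative, with Cdkn2c at 0.58, Cdkn1c at -0.45 and Cdkn1a at -0.36. Of 18 genes of pocket proteins, E2F factors and MuvB, 10 were negative, with E2f4 at 0.37, Lin54 at 0.38, E2f3 at -0.77 and Rbl1 at -0.16. G1 cyclins and kinases had 3 of 6 negative, with Ccnd3 at 0.52, Cdk4 at -0.34 and Ccnd1 at -0.73.

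Markers of other cell types moved between the same arrays, and their part in the mitotic values was not tested. The mean of 11 erythroid genes was 9.94 to 10.22 in WT and 10.40, 10.20, 11.33, 11.07 and 10.76 in Sca1-MALT1 replicates 1 to 5, so replicates 3 and 4 were highest here too (Car1 differed by 2.45 and Gata1 by 0.94). Granulocyte precursor genes separated those arrays. Their mean over 13 genes was 10.92 to 11.97 in WT. It was 13.31 in replicate 4 and 9.59 in replicate 3, the highest and the lowest of all 8 arrays. Of the 13 differences 9 were negative (S100a9 at -1.30 and S100a8 at -0.81) and 4 positive. The positive ones were Elane (1.26), Ctsg (0.79), Prtn3 (0.79) and Ms4a3 (0.73), named outside the rule for named genes after their values were seen. The 13 genes did not move as one. In WT replicate 3 Camp and Ltf read 14.93 and 14.65, the highest of all 8 arrays, while Mpo read 9.34, its lowest WT value. Camp, Ltf and Mpo were also named outside that rule. The means of 10 stem and progenitor genes were 9.26 to 10.63 in WT and 8.33, 10.15, 8.80, 8.45 and 10.29 in Sca1-MALT1 (Flt3 differed by -1.59 and Hlf by -1.33). The means of 11 pro-B and pre-B genes were 9.78 to 10.72 in WT and 7.39 to 8.20 in Sca1-MALT1, with 4 genes past the threshold, Igll1, Vpreb1, Rag1 and Rag2, all lower. Plasma cell genes, 10 in number, averaged 9.12 to 9.26 in WT and 10.99 to 12.82 in Sca1-MALT1, with Jchain past the threshold and Xbp1 at 1.32. T cell genes averaged 9.14 to 9.49 in WT, 8.94 in replicate 4 and 10.25 to 10.61 in the other Sca1-MALT1 arrays (Zap70 differed by 0.80 and Cd28 by 1.69). The 6 measured lineage markers of the depletion averaged 8.20 to 8.62 in WT and 8.14 to 8.45 in Sca1-MALT1. Over 7 NK cell genes replicate 4 was lowest at 8.41 and replicate 2 highest at 10.43, and over 7 monocyte and macrophage genes replicate 4 read 10.51, inside the WT range of 9.65 to 10.55. RMA gives no detection call, so none of these markers could be called absent.

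**Figure D4:**
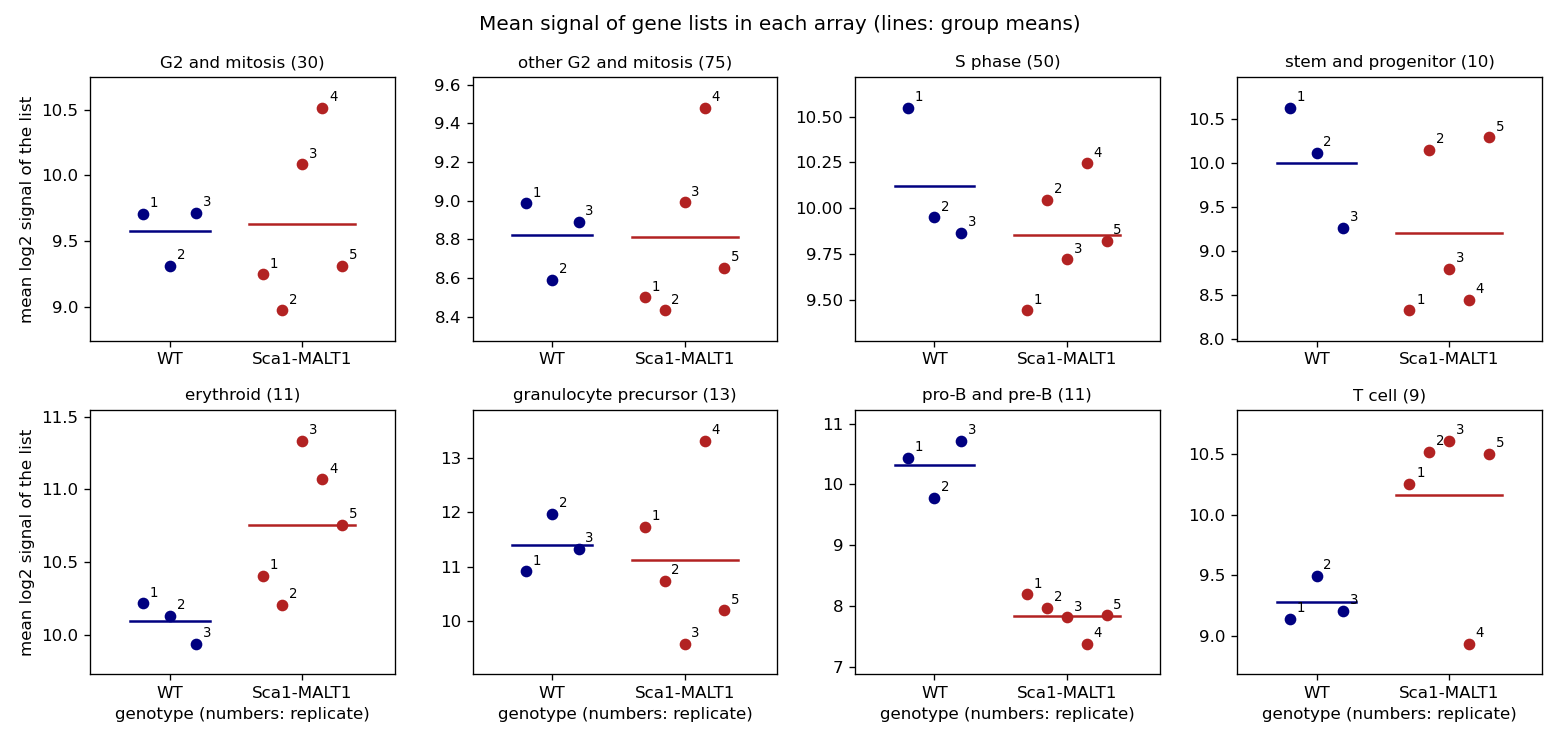
Mean log2 signal of 8 gene lists (number of measured genes in brackets) in each array, WT in blue and Sca1-MALT1 in red, with the replicate number beside each point and lines at the group means. Replicates 3 and 4 lead in the G2 and mitosis and the erythroid lists, and lie at opposite ends in the granulocyte precursor list, at 9.59 and 13.31. Vertical scales differ between panels.

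RNA quality measures also moved with these arrays in part, and their part in the result was not tested. For the Gapdh control, signal of the 3' end minus that of the 5' end, in log2 units, was lowest in Sca1-MALT1 replicate 4 at 2.25 and highest in replicate 5 at 3.20, with 2.75 in replicate 3. The WT arrays ran from 2.70 to 2.92. For beta-actin it was 1.25 in replicate 4 and 1.29 in replicate 3, the lowest of the 8 arrays. It was 2.49 in replicate 5, against 1.45 to 2.14 in WT. Replicates 1 and 2, which read low in the mitotic genes, stood at 2.70 and 2.55 for Gapdh and at 1.33 and 1.53 for beta-actin. Without replicate 5 the median difference of the 30 genes was 0.14, with 8 genes lower and none past the threshold in limma's test.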

How the data were processed

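Total RNA was amplified and hybridised to 8 arrays, 3 WT and 5 Sca1-MALT1. The deposited values are log2 signals made by the authors with RMA, per the submitters' processing notes. Its version and the set of arrays it was run on were not named there. They ran from 2.73 to 15.41 and were used as they stood. The number of arrays limits the precision.

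Of 45101 probe sets, 64 were controls, 34945 had 1 gene symbol, 932 several and 9160 none listed. Symbols were updated through Entrez identifiers with RefSeq GRCm38.p6, and the brightest probe set per gene was kept.

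Genotypes were compared with limma 3.58.1 in R 4.3.3 (lmFit and eBayes, genotype only), adjusted by Benjamini-Hochberg over 18193 genes, and tested on simulated data. Exact permutation tests are two-sided over the 56 splits of 8 arrays into 3 and 5, with a smallest p of 0.0179. Array values were given for up to 3 members per role with the lowest p and for the largest difference each way. Of other cell cycle lists, up to 3 genes were named by lowest p, with Foxm1, Mybl2, Cdkn1a, Cdkn1c and Rbl1 always; of marker lists, up to 2. The members and lists were chosen with earlier results of these data known. Alternatives were other normalizations, probe set rules, variance models, a filter on dim genes, a replicate block and leaving out each array.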

Additional observations from a re-analysis of the deposited data

Results flagged for a closer look

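In the 5 Sca1-MALT1 arrays, 47 sets of values were checked for an array far from the rest (30 genes and 17 list means), by Dixon's ratio of the gap to the range. Chance marks about 1 in 20 such sets, and 3 were marked, all in replicate 4. Bub1b read 11.09 there, with a ratio of 0.949 against a critical value of 0.71. Cdc20 read 13.07 (ratio 0.822). The mean of the T cell list was 8.94, the lowest array (ratio 0.787).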

How the results depend on the processing

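No G2 or mitosis gene passed the threshold under any of the alternatives run, and their median SD among the Sca1-MALT1 arrays was 0.55 to 0.77 with single arrays left out, against 0.68. The number of all genes past the threshold was 28 with array quality weights, against 16 as reported, and 8 to 38 with single arrays left out (Sca1-MALT1 replicate 1 left out, 10; replicate 2, 38; replicate 3, 8; replicate 5, 9). With the replicate number as a block it was 0 in limma's test, with 2034 genes at an unadjusted p under 0.05; the lowest adjusted p of the 30 genes was then 0.316. The labels do not say that equal numbers mark paired samples. Deviations of same-numbered samples correlated at -0.217, -0.0378 and 0.00642 over all genes. Those of samples with unequal numbers ran from -0.238 to 0.215, so this check cannot decide whether the numbers mark pairs.

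The direction of the members' differences, none of them called, changed with the arrays used. The number of lower genes was 10 as reported, 21 with the replicate block and 5 to 23 with single arrays left out. When each probe set was tested alone, 28 of 64 were lower. The median difference was -0.14 with the block and -0.16 to 0.23 with arrays left out. The block values do not draw on Sca1-MALT1 replicates 4 and 5, and replicate 4 was the highest array in 22 of the 30 genes. The number of genes whose groups do not overlap was 0 to 1 with arrays left out. The 1 was Bub1b without Sca1-MALT1 replicate 4, the array marked above as far from the rest for this gene. The share of all genes without overlap is not given for that setting, so whether this count exceeds the background cannot be told. For 19 genes with printed array values, 305 of 307 recomputed differences moved by less than 1 SD between replicates. Another probe set of Cenpe (-0.76) and of Kif11 (-0.24) moved by more. The count of 305 says little about stability. Leaving out a single array cannot move a difference by more than that SD. The filter on dim genes and the variance model leave a difference unchanged. Judged by the limma interval of each gene, differences under about 1 log2 unit could not be resolved for most members. Passing the adjusted threshold took a larger difference than that. Rag2 passed at -2.46 (SE 0.30, limma adjusted p = 0.0374), while Prdm1 at 2.76 (SE 0.49, limma adjusted p = 0.127) did not. The SE of the 30 genes ran from 0.21 to 0.53. The lack of calls among them therefore cannot by itself exclude differences above 1 log2 unit.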
